A study of Homo sapiens with 30 samples.

Results

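The rows examined were the spliceosomal small nuclear RNAs, the short RNAs at the core of the particles that remove introns. They were chosen by gene symbol from a set of 10 symbols. No measured value entered the rule, though earlier results of these data were known when it was set. Of these, 4 matched a row among the 27630 rows of the count tables: RNU11, RNU12, RNU4ATAC and RNU6ATAC. All 4 belong to the minor spliceosome. The other 6 symbols, for U1, U2, U4 and U5 of the major spliceosome, were not analysed here, so the major and the minor spliceosome could not be set against each other at those rows.

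The RNA libraries, 8 in all and 2 in each of 4 groups, came from HEK293FT cells, a line of human embryonic kidney origin that carries SV40 large T antigen. Per the labels, all groups came from asynchronous cells transfected with APEX2 fused to lamin B1, so the 2 fractions carried the construct as well. APEX2 is an engineered peroxidase that tags molecules close to it, and lamin B1 is a filament protein of the nuclear lamina, the meshwork under the inner nuclear membrane. Cell fractions, one nuclear and one cytosolic, made up 2 groups. The others were an APEX2 RNA preparation without fixation in its label, called native lamina here, and one labelled with PFA (paraformaldehyde), called PFA lamina. RNA was taken up in Trizol and depleted of ribosomal RNA. No group without the construct was compared, and the promoter of the construct is not stated. The labels number the replicates but do not say that they were separate cultures, so the p-values measure only the spread between these libraries, which may be technical.

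The minor spliceosome removes a rare class of introns with its own splice site sequences. U11 and U12 RNA work as a pair that reads the 5′ splice site and the branch point, while U4atac and U6atac RNA enter together with U5 RNA, and U6atac then takes part in the catalytic centre. U11, U12 and U4atac are made by RNA polymerase II, pass through the cytoplasm to receive a ring of Sm proteins and a modified cap, and return to the nucleus. U6atac is made by RNA polymerase III, keeps a simpler cap and carries a ring of LSm proteins.

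Each of the 4 rows was a single interval of the hg19 annotation. RNU11 lay at chr1:28975112-28975246 on the plus strand (135 bases), wholly inside an exon of the non-coding gene LINC01715 on the same strand. RNU12 lay at chr22:43011251-43011399 on the plus strand (149 bases), 283 bases from the start of POLDIP3, which runs the other way. RNU4ATAC lay at chr2:122288456-122288585 on the plus strand (130 bases), within the span of CLASP1, which runs on the minus strand and shares no exon with it. RNU6ATAC lay at chr9:137029562-137029686 on the minus strand (125 bases), with no annotated gene within 2000 bases. Reads were counted without regard to strand and for every gene they overlapped, so unspliced CLASP1 RNA across RNU4ATAC could not be told apart from U4atac RNA.

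Total counts per library ran from 2321291 in PFA lamina replicate 2 to 8557777 in native lamina replicate 1. Counts up to 3 were treated as the floor, equal to 0.351 to 1.29 CPM, that is counts relative to library size. None of the 8 HEK293FT marker genes was at the floor in every library, and they summed to 353 to 1736 CPM. VIM was the highest of them in each library, at 260 to 1311 CPM, and PAX2 was at 0 in cytosolic replicate 2. The sum therefore rests mostly on VIM. Of 5 markers of K562, another line of the series, 3 (HBG1, HBG2 and HBE1) were at 0 in every library, and the list summed to 2.09 to 5.96 CPM. TAL1 reached 5.26 CPM in native lamina replicate 1, and GATA1 2.15 CPM in PFA lamina replicate 2. A list of 7 markers of HCT116, a further line of the series, summed to 22.7 to 53.8 CPM. Of these 7, 3 were at the floor in every library, whereas CDX2 stood at 9.21 to 44.2 CPM. The source of the CDX2 reads was not tested. LMNB1, which the construct also encodes, stood at a mean of 3369 normalised CPM in the nuclear fraction and 5290 in the cytosol, against 51341 in the native and 88620 in the PFA lamina. A list of nuclear RNAs (MALAT1, NEAT1 and others) summed to 13572 to 19788 CPM in the nuclear and 997 to 1057 CPM in the cytosolic libraries. In the native lamina it summed to 7131 to 15368 CPM, with MALAT1 at 6133 CPM in replicate 1 and 13868 CPM in replicate 2. A list of cytosolic RNAs (GAPDH, ACTB and others) summed to 886 to 1281 CPM in the nuclear and 5188 to 6967 CPM in the cytosolic libraries. Its sums were 2419 to 2455 CPM in the native and 2024 to 2669 CPM in the PFA lamina. PFA lamina replicate 1 stood apart: its nuclear RNAs summed to 658 CPM against 4810 CPM in replicate 2, and its log2 levels across genes correlated at 0.959 with cytosolic replicate 1 but at 0.916 with PFA lamina replicate 2.

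RNU11, the U11 RNA that pairs with the 5′ splice site of minor introns, was the most abundant of the 4 rows in every library. It had 258 and 235 counts in the nuclear libraries (replicates 1 and 2), 346 and 225 in the cytosolic, 668 and 85 in the native lamina and 318 and 29 in the PFA lamina libraries. Scaled to library size by TMM (a trimmed mean of ratios between libraries), these were 40.2 and 40.4, 46.3 and 47.6, 69.4 and 12.5, and 58.8 and 10.7 normalised CPM. Both fractions repeated closely, whereas replicate 1 of either lamina preparation was far above replicate 2. Per kilobase, the group means were 348 ± 6.90 normalised CPM in the cytosolic fraction, 304 ± 298 in the native lamina, 298 ± 1.16 in the nuclear fraction and 257 ± 252 in the PFA lamina (SD, n = 2). The highest mean was 1.35 times the lowest. Neighbours in this order that include a lamina preparation lay within its spread, and the 2 fractions did not overlap but differed by less than the test could call.

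RNU12, the U12 RNA that pairs with the branch point, followed RNU11 at a lower level. Its counts were 134 and 115 in the nuclear, 197 and 104 in the cytosolic, 240 and 37 in the native lamina and 159 and 24 in the PFA lamina libraries. In normalised CPM these were 20.9 and 19.8, 26.3 and 22.0, 24.9 and 5.45, and 29.4 and 8.83. The fractions again repeated closely, and replicate 1 of both lamina preparations exceeded replicate 2. Per kilobase the means were 162 ± 20.6 in the cytosolic fraction, 136 ± 5.20 in the nuclear fraction, 128 ± 97.5 in the PFA lamina and 102 ± 92.5 in the native lamina (normalised CPM, SD, n = 2). The libraries of the 2 fractions did not overlap, while both lamina means lay within the spread of their own libraries from the nuclear mean.

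RNU4ATAC, the U4atac RNA that holds U6atac inactive until the spliceosome is assembled, was low in both lamina preparations. It had 46 and 13 counts in the nuclear, 74 and 27 in the cytosolic, 21 and 6 in the native lamina and 14 and 4 in the PFA lamina libraries. These were 7.16 and 2.23, 9.89 and 5.71, 2.18 and 0.884, and 2.59 and 1.47 normalised CPM. Every lamina library was below every cytosolic one, and the native libraries were also below both nuclear ones, by a margin of 2.18 against 2.23. Per kilobase the means ran from 60.0 ± 22.8 in the cytosolic fraction through 36.1 ± 26.8 in the nuclear fraction and 15.6 ± 6.07 in the PFA lamina to 11.8 ± 7.06 in the native lamina (normalised CPM, SD, n = 2), a 5.09-fold range.

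RNU6ATAC, the U6atac RNA of the catalytic centre, was low in the nuclear fraction and high in the cytosol. It had 11 and 13 counts in the nuclear, 93 and 35 in the cytosolic, 45 and 5 in the native lamina and 73 and 3 in the PFA lamina libraries, the last at the floor. These were 1.71 and 2.23, 12.4 and 7.40, 4.68 and 0.737, and 13.5 and 1.10 normalised CPM. Both nuclear libraries were below both cytosolic libraries, and the 2 PFA lamina libraries spanned the range of all others but one. The means per kilobase were 79.3 ± 28.5 in the cytosolic fraction, 58.4 ± 70.1 in the PFA lamina, 21.7 ± 22.3 in the native lamina and 15.8 ± 2.95 in the nuclear fraction (normalised CPM, SD, n = 2), a 5.03-fold range. The cytosolic fraction thus had the highest mean for all 4 RNAs with these scaling factors.

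**Figure D1:**
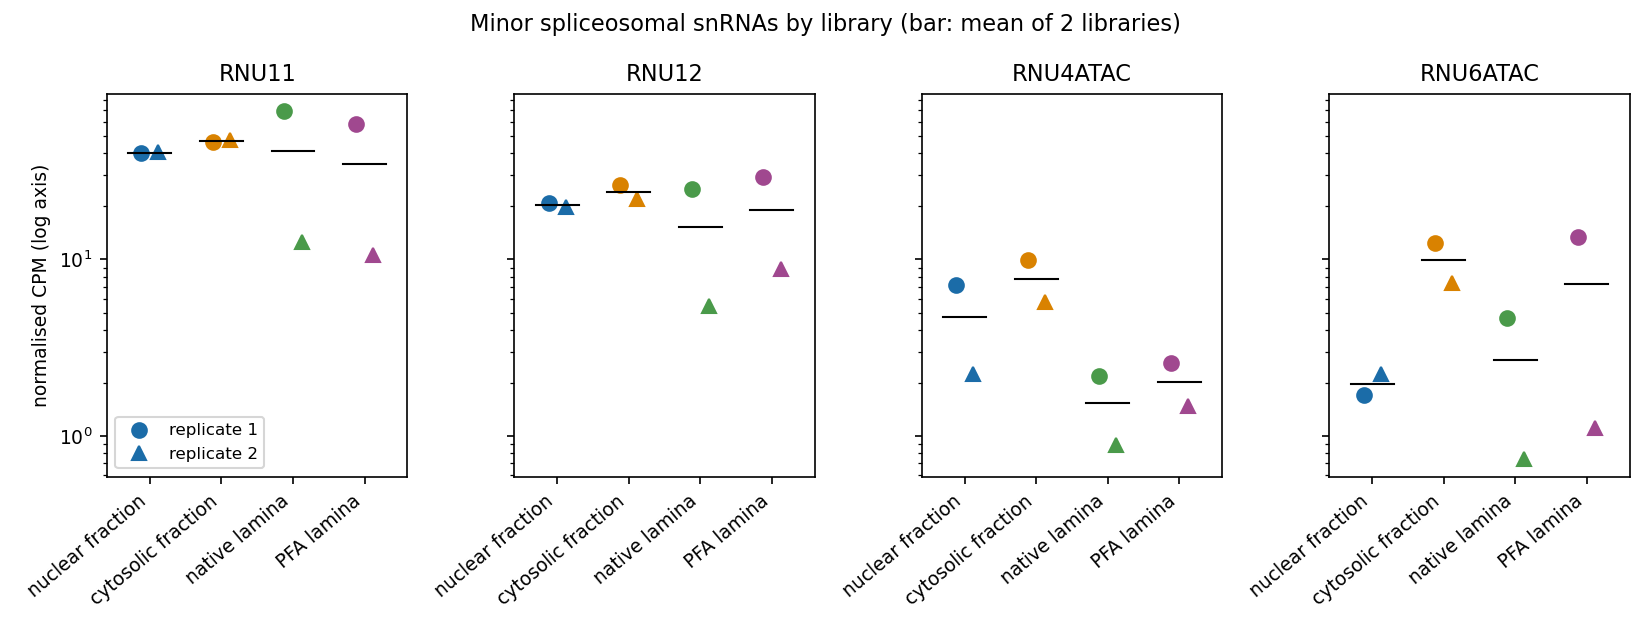
Normalised CPM (log axis) of RNU11, RNU12, RNU4ATAC and RNU6ATAC in the 4 groups, with a circle for replicate 1, a triangle for replicate 2 and a bar at the mean of 2 libraries. RNU11 repeats at 40.2 and 40.4 in the nuclear fraction but stands at 69.4 and 12.5 in the native lamina.

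The first comparison set the nuclear against the cytosolic fraction. RNU6ATAC was lower in the nuclear fraction, at 0.199 times the cytosolic level, a log2 difference of -2.33 (SE 0.90, 95% interval -4.27 to -0.40, edgeR adjusted p = 0.0468). The other 3 rows did not pass the test: RNU4ATAC differed by -0.73 (interval -2.12 to 0.66), RNU12 by -0.25 (-1.49 to 0.98) and RNU11 by -0.22 (-1.65 to 1.21) on the log2 scale, with adjusted p = 0.364, 0.737 and 0.802. Of the 4 rows, 1 was therefore called lower and 0 higher, where 21.2% of the 16504 genes tested were called lower and 47.3% called in either direction. RNU4ATAC moved to -1.81 without nuclear replicate 1, -0.15 without nuclear replicate 2 and -0.29 without cytosolic replicate 1. The share of all genes called ranged from 24% without nuclear replicate 1 to 54.5% without PFA replicate 2. The libraries of the groups did not overlap for RNU11, RNU12 and RNU6ATAC, all lower in the nuclear fraction, as was the case in that direction for 35.4% of all genes. The call of RNU6ATAC was lost without any one of the 4 libraries compared, with adjusted p between 0.0706 (without cytosolic replicate 2) and 0.198 (without nuclear replicate 1), and with upper-quartile scaling (adjusted p = 0.0757). Each gene had 1 estimate of spread from all 8 libraries, so these intervals also carry the gaps between the lamina libraries. Fitted on only the 4 libraries compared, RNU6ATAC was at -2.36 (SE 0.51, edgeR adjusted p = 7.74e-04), where 56.7% of all genes were called. In that fit RNU11 was at -0.24 (SE 0.25) and RNU12 at -0.27 (SE 0.29), and neither was called. Since all values are relative to the rest of each library, a higher level of an RNA and a lower level of the others cannot be told apart.

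The size of these differences depended on the scaling. When the factors were computed only from rows under 300 exonic bases, the all-gene median shifted by -1.46 on the log2 scale, and all 4 rows were called lower in the nuclear fraction, as were 57.8% of all genes. RNU6ATAC then differed by -3.81, RNU4ATAC by -2.14, RNU12 by -1.72 and RNU11 by -1.68 (edgeR adjusted p = 3.55e-04, 0.00866, 0.00675 and 0.0147). With upper-quartile factors the all-gene median shifted by 0.27, and RNU11 and RNU12 had differences of 0.051 and 0.016, of opposite sign to those above. RNU6ATAC and RNU4ATAC were lower in the nuclear fraction with each scaling tried.

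Rows of other short RNAs of the nucleus stood the other way in the same comparison. Where such a row lies within another gene, unspliced RNA of that gene across it is counted in the row too. How many of these rows lie within other genes was not examined, so their counts may not be of the mature short RNA alone. Box C/D small nucleolar RNAs, which guide methylation of ribosomal RNA, had a median log2 difference of 2.60 over 128 rows, with 91 higher and 2 lower in the nuclear fraction. Box H/ACA RNAs, which guide pseudouridylation, had a median of 1.69 over 107 rows (60 higher, 2 lower), and the Cajal body RNAs, which guide modification of the small nuclear RNAs themselves, 1.65 over 23 rows (11 higher, 1 lower). The median of the 4 minor RNAs was -0.49, and that of all genes tested was 0.13, with 26.1% of genes called higher. With factors from short rows the medians of these 3 classes were 1.14, 0.22 and 0.14, and that of the minor RNAs was -1.93. The calls then were 19 higher and 7 lower for box C/D, 10 and 11 for box H/ACA and 3 and 2 for the Cajal body RNAs, against 7.54% of all genes higher and 57.8% lower. The 387 short rows behind these factors include the 4 minor RNAs and short RNAs of these classes. Such factors shift all rows by nearly the same amount, so these medians cannot test the gap between the classes. Without any one of the 4 libraries compared, fewer rows of each class were called higher, and fewer of all genes. Over the alternatives other than short-row factors, the medians ran from 1.49 to 2.86 for box C/D and 1.35 to 1.95 for box H/ACA. They ran from 1.32 to 1.99 for the Cajal body RNAs, -1.05 to -0.027 for the minor RNAs and 0.021 to 0.498 for all genes. No test of the difference between the classes was made.

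Both lamina preparations were then set against the nuclear fraction, the question being which RNAs lie near the lamina. In the native lamina, none of the 4 rows was called, where 7.31% of all genes were called, 3.87% higher and 3.44% lower. That share fell to 0.059% without nuclear replicate 1, 0.139% without nuclear replicate 2, 1.03% without native replicate 1 and 0.802% without native replicate 2, was 4.34% and 4.33% without a cytosolic library, and was 22% and 21.9% without PFA replicates 1 and 2. RNU4ATAC was lowest, at -1.57 on the log2 scale (SE 0.70, interval -3.07 to -0.07, unadjusted p = 0.0410, edgeR adjusted p = 0.155), and its groups did not overlap, as for 35.1% of all genes in that direction. It was at -0.50 without nuclear replicate 1, -1.09 without native replicate 2 and -2.37 without native replicate 1 (edgeR adjusted p from 0.240 to 0.802). RNU11 differed by 0.03 (-1.39 to 1.46), RNU12 by -0.40 (-1.64 to 0.84) and RNU6ATAC by 0.50 (-1.47 to 2.48). These intervals leave room for differences of more than 1 log2 unit either way for RNU11 and RNU6ATAC.

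Against the same nuclear libraries, the PFA lamina had 0 of the 4 rows called, where 17.4% of all genes were called, 9.63% higher and 7.81% lower. Without nuclear replicate 1, nuclear replicate 2 or PFA replicate 1 the share of all genes was 0.0767%, 2.67% or 4.18%, and without PFA replicate 2 it was 34.7%. RNU6ATAC had the largest difference, 1.97 (SE 0.91, interval 0.01 to 3.93, unadjusted p = 0.0489, edgeR adjusted p = 0.142), but its groups overlapped. It rested on PFA lamina replicate 1: without that library it was -0.81, and without replicate 2 it was 2.78 (adjusted p = 0.00465). Replicate 1 was also the library whose nuclear RNAs summed to 658 CPM. Whether that bears on the RNU6ATAC value was not tested. RNU4ATAC differed by -1.15 (-2.71 to 0.42), RNU11 by -0.17 (-1.62 to 1.27) and RNU12 by -0.04 (-1.30 to 1.21).

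Against the cytosolic fraction, RNU4ATAC was lower in the native lamina, at 0.202 times the cytosolic level. Its log2 difference was -2.31 (SE 0.69, interval -3.79 to -0.82, edgeR adjusted p = 0.0425). This was the only one of the 4 rows called, where 6.77% of all genes were called lower, 6.99% higher and 13.8% in either direction. The last share was 1.41% and 0.92% without cytosolic replicates 1 and 2, 6.65% and 1.68% without native replicates 1 and 2, and 24.6% and 24.7% without PFA replicates 1 and 2. The call was lost without nuclear replicate 1 (adjusted p = 0.0537), cytosolic replicate 1 (0.219), cytosolic replicate 2 (0.0961), native replicate 1 (0.0749) or native replicate 2 (0.255), and with total counts (0.0840) or upper-quartile factors (0.0560), with the direction kept in each. RNU6ATAC was at -1.83 (interval -3.65 to -0.0027, unadjusted p = 0.0497, edgeR adjusted p = 0.157), and moved to -3.72 without native replicate 1 and -1.09 without native replicate 2. It was called without PFA replicate 1 (-1.86, adjusted p = 0.0248) or PFA replicate 2 (-1.82, adjusted p = 0.0228). For both RNAs the groups did not overlap, as for 28.4% of all genes in that direction. RNU12 was at -0.65 (-1.89 to 0.58) and RNU11 at -0.19 (-1.60 to 1.23).

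Between PFA lamina and cytosolic fraction, edgeR called 0.673% of all genes (111) and 0 of the 4 rows. DESeq2's Wald test called 1000 genes, and edgeR called 1526 without a filter and 2869 (16.4%) without PFA replicate 1. Without nuclear replicate 1 or either cytosolic replicate edgeR called 0 genes, and 23 and 34 without nuclear replicate 2 and PFA replicate 2. RNU4ATAC was at -1.88 on the log2 scale (SE 0.72, interval -3.43 to -0.34, unadjusted p = 0.0207, edgeR adjusted p = 0.157), with groups that did not overlap, as for 23% of all genes in that direction. The differences of RNU11, RNU6ATAC and RNU12 were -0.39 (-1.83 to 1.05), -0.36 (-2.13 to 1.40) and -0.30 (-1.55 to 0.96). Without PFA lamina replicate 1, RNU6ATAC (-3.21) and RNU11 (-2.19) were called lower, and without replicate 2 they were at 0.43 and 0.32. Between the 2 lamina preparations 0% of genes were called by edgeR's adjusted p and 11% had an unadjusted p under 0.05, while DESeq2's Wald test called 253 genes. None of the 4 rows was called by either tool, and the differences of PFA over native lamina were -0.21 for RNU11, 0.36 for RNU12, 0.42 for RNU4ATAC and 1.46 for RNU6ATAC (interval -0.38 to 3.31). Over the 6 comparisons, 2 of 24 values were called. In the order described, the shares of all genes called were 47.3%, 7.31%, 17.4%, 13.8%, 0.673% and 0%.

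**Figure D2:**
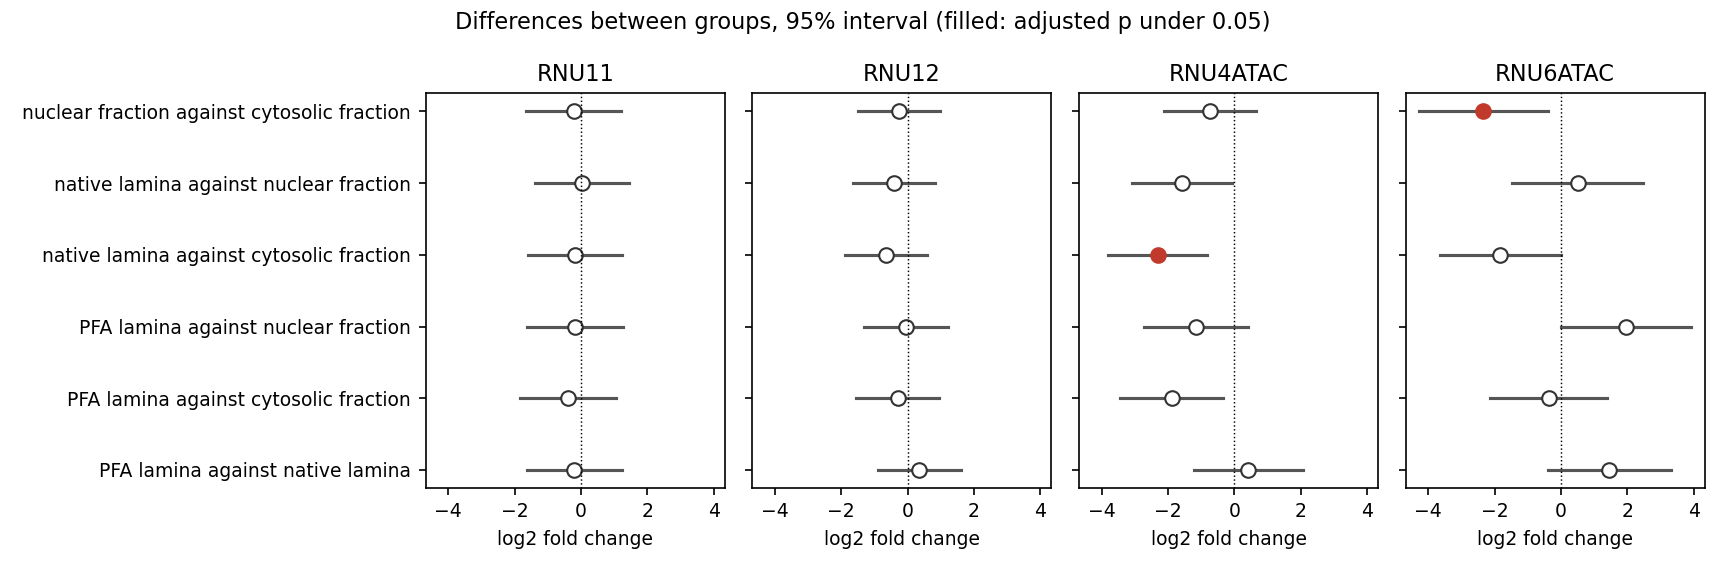
Log2 fold change of the first over the second group for the 4 minor RNAs in the 6 comparisons, with 95% intervals and filled points where the adjusted p was under 0.05. The 2 filled points are RNU6ATAC in the nuclear against the cytosolic fraction (-2.33) and RNU4ATAC in the native lamina against the cytosolic fraction (-2.31).

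The make-up of the minor RNA counts within a library does not depend on any scaling between libraries. RNU6ATAC made up 2.45% (95% Wilson interval 1.37% to 4.33%) and 3.46% (2.03% to 5.82%) of the counts of the 4 rows in the nuclear libraries. In the cytosolic libraries it made up 13.1% (10.8% to 15.8%) and 8.95% (6.51% to 12.2%), above the nuclear intervals. The native lamina, at 4.62% (3.47% to 6.13%) and 3.76% (1.62% to 8.50%), overlapped the nuclear values. The PFA lamina libraries differed, at 12.9% (10.4% to 16.0%) in replicate 1 and 5.00% (1.71% to 13.7%) in replicate 2. These intervals cover counting error only and take each read as a separate molecule. The reads carry no molecular identifier to check this, so the intervals may be too narrow. An exact permutation test of 2 against 2 libraries cannot go below p = 0.333, so none is given.

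RNU4ATAC took 6.85% ± 4.80 of these counts in the nuclear and 8.66% ± 2.49 in the cytosolic libraries, 3.33% ± 1.67 in the native lamina and 4.57% ± 2.96 in the PFA lamina (SD, n = 2). U4atac and U6atac RNA are joined in one particle before splicing, and their counts can be set against each other within a library. There were 0.239 RNU6ATAC counts per RNU4ATAC count (interval 0.125 to 0.456) in nuclear replicate 1, while nuclear replicate 2 had 13 of each. Cytosolic ratios were 1.26 (0.927 to 1.70) and 1.30 (0.789 to 2.13), and the 2 libraries repeated. The lamina ratios spread from 0.750 in PFA replicate 2 and 0.833 in native replicate 2 to 2.14 in native replicate 1 and 5.21 (2.97 to 9.17) in PFA replicate 1. RNU12 and RNU11, which form the other paired particle, kept a narrower ratio, from 0.359 RNU12 counts per RNU11 count in native replicate 1 to 0.828 in PFA replicate 2, with the fractions between 0.462 and 0.569. RNU11 was 60.0% ± 3.56 of the counts in the nuclear libraries, 53.1% ± 6.23 in the cytosolic ones, 66.2% ± 3.30 in the native lamina and 52.4% ± 5.69 in the PFA lamina.

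**Figure D3:**
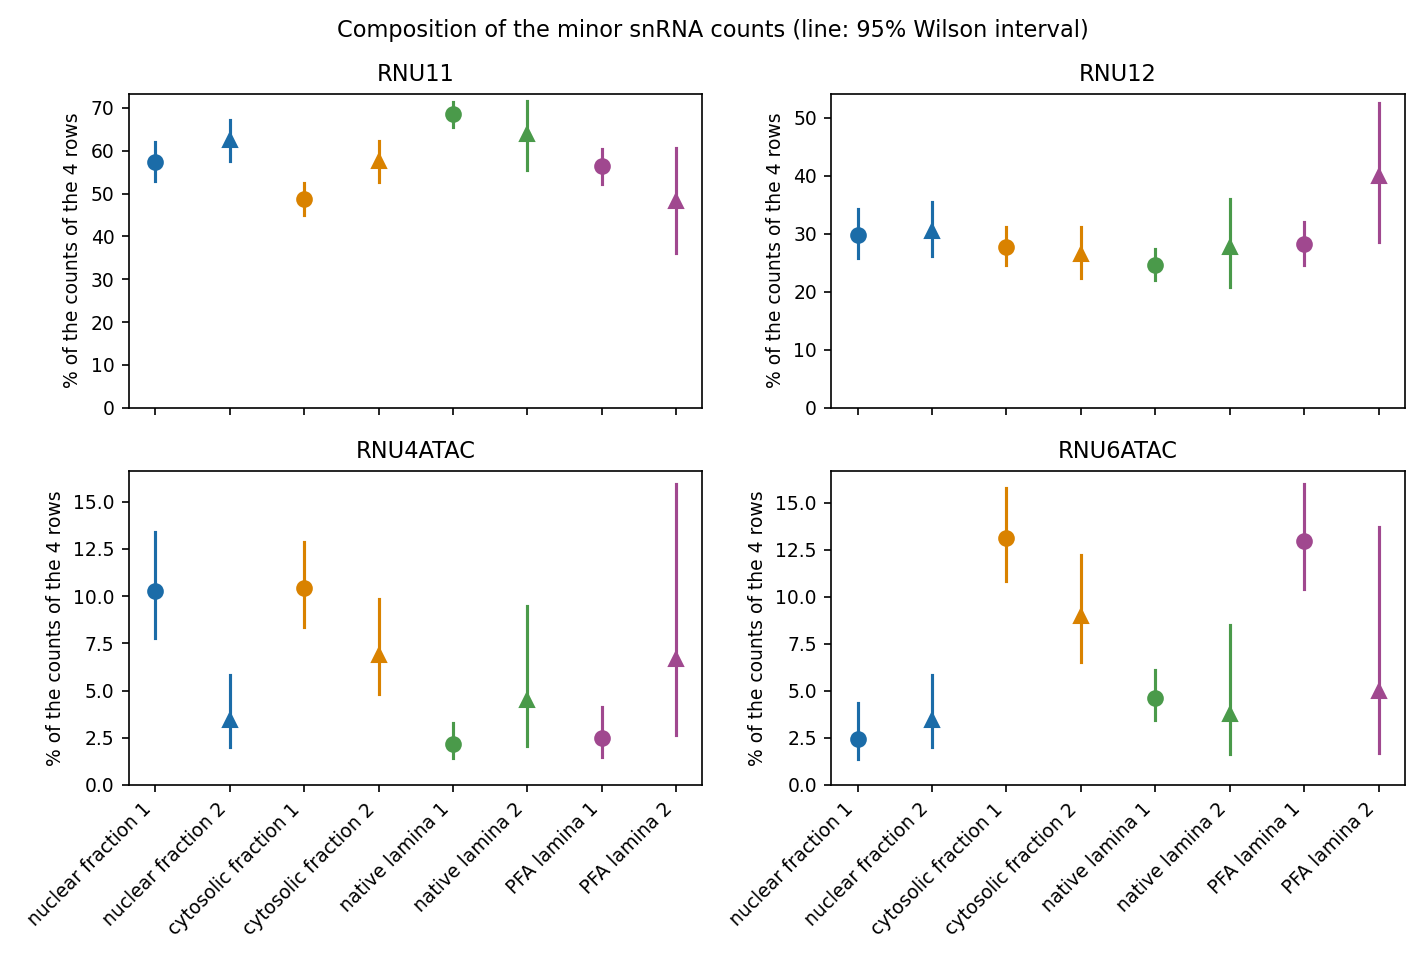
Percent of the counts of the 4 minor RNA rows taken by each row in each library, with 95% Wilson intervals and a separate axis from 0 per panel. RNU6ATAC is at 2.45% and 3.46% in the nuclear libraries and at 13.1% and 8.95% in the cytosolic libraries.

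The 2 libraries of each lamina preparation stood far apart in these RNAs. The 4 rows together stood at 69.9 and 64.6 normalised CPM in the nuclear and 94.9 and 82.7 in the cytosolic libraries, at 101.2 and 19.6 in the native lamina and at 104.2 and 22.1 in the PFA lamina. Replicate 1 was thus 1.08 and 1.15 times replicate 2 in the fractions, and 5.17 and 4.72 times in the native and PFA lamina. Small nucleolar and Cajal body RNAs summed over the same libraries gave ratios of 0.817, 0.966, 1.35 and 1.05. In the native lamina the gap of RNU11 between replicates was wider than that of 99.9% of the genes tested, and the gaps of RNU12 and RNU6ATAC wider than 99.8%. In the PFA lamina these shares were 97.0% for RNU11, 91.2% for RNU12 and 99.1% for RNU6ATAC. RNU4ATAC was less extreme there, at 92.0% in the native and 57.9% in the PFA lamina, and had its widest gap relative to other genes in the nuclear fraction (98.9%). LMNB1 was 2.92 times as high in native replicate 1 as in replicate 2, but 1.19 times in the PFA lamina. Any part of the construct's level in these gaps was not tested.

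RNU11 and its host LINC01715 shared their reads. RNU11 reads made up between 78.7% (native replicate 2) and 97.4% (native replicate 1) of the LINC01715 counts, and 7 to 37 counts per library lay in LINC01715 outside RNU11. The LINC01715 row was accordingly the closest of 10694 other rows to RNU11 across the 8 libraries (Pearson r = 0.999 of log2 values, by construction). The next 2 were IGFBPL1 (r = 0.968) and POP1 (r = 0.949), each picked as the highest of all rows, so that the values carry no test. IGFBPL1, an insulin-like growth factor binding protein family member, went from 13.6 and 10.3 normalised CPM in replicate 2 of the native and PFA lamina to 29.0 and 30.5 in replicate 1. POP1, a protein subunit of RNase P and RNase MRP, went from 7.66 and 4.41 to 17.7 and 13.7. In both rows, as in RNU11, the second replicates of the lamina preparations were the lowest libraries.

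In addition to the 4 minor RNAs, the tables held 7 rows with small nuclear RNA symbols, chosen by a symbol pattern: variants of U1, short intervals named for U5, and RNU6-2, a row that pools 11 intervals on several chromosomes. They had 0 to 48 counts per library. Only RNU6-2 and RNVU1-8, named here after their values were seen, were abundant enough to test, and neither was called in any of the 6 comparisons (smallest edgeR adjusted p = 0.103). Over all 11 rows the minor RNAs were 82.8% (79.4% to 85.8%) and 88.9% (85.5% to 91.5%) of the counts in the nuclear libraries. They were 90.4% and 88.1% in the cytosolic, 95.02% and 88.7% in the native lamina and 92.6% and 89.6% in the PFA lamina libraries. Reads from near-identical copies may have been split or lost in these 7 rows, so this share does not stand for the balance of the 2 spliceosomes.

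The messenger RNAs of the proteins around these RNAs were distributed in several ways. Proteins found only in the minor spliceosome had 13 genes tested, with 4 of them higher and 3 of them lower in the nuclear fraction and a median log2 difference of 0.18 from the cytosolic fraction. Among all genes 26.1% were higher and 21.2% lower, so both counts are near the background. CCDC84, which acts with U4atac and U6atac in choosing among minor introns, was at 27.0 ± 5.62 normalised CPM in the nuclear and 3.03 ± 0.502 in the cytosolic group, a log2 difference of 3.16 (edgeR adjusted p = 5.54e-04). ZCRB1, a protein of the U11 and U12 particle, was the reverse, at 4.17 ± 0.176 against 21.0 ± 4.13 (-2.32, adjusted p = 0.00384). Both kept their call in all 17 alternatives. RBM48, which binds U6atac, differed by 1.44 (adjusted p = 0.00662), and RNPC3, which bridges U11 and U12, by 1.47 (0.00768). With factors from short rows neither was called, at -0.036 and 0.036. RBM48 also lost its call without nuclear replicate 2 or cytosolic replicate 1, and RNPC3 without nuclear replicate 1 or cytosolic replicate 1. ZRSR2, which recognises the 3′ splice site, was also higher, and ZMAT5 and SNRNP25 of the U11 and U12 particle were the other genes lower. These 3, named after their values were seen, kept the call in 10 of 16, 13 of 17 and 12 of 17 alternatives. Over the alternatives other than short-row factors, the list's median ran from -0.033 to 0.437, and that of all genes from 0.021 to 0.498. With factors from short rows 1 of the 13 was higher and 9 were lower, against 7.54% and 57.8% of all genes, and the list's median fell on both sides of 0 among the alternatives.

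**Figure D4:**
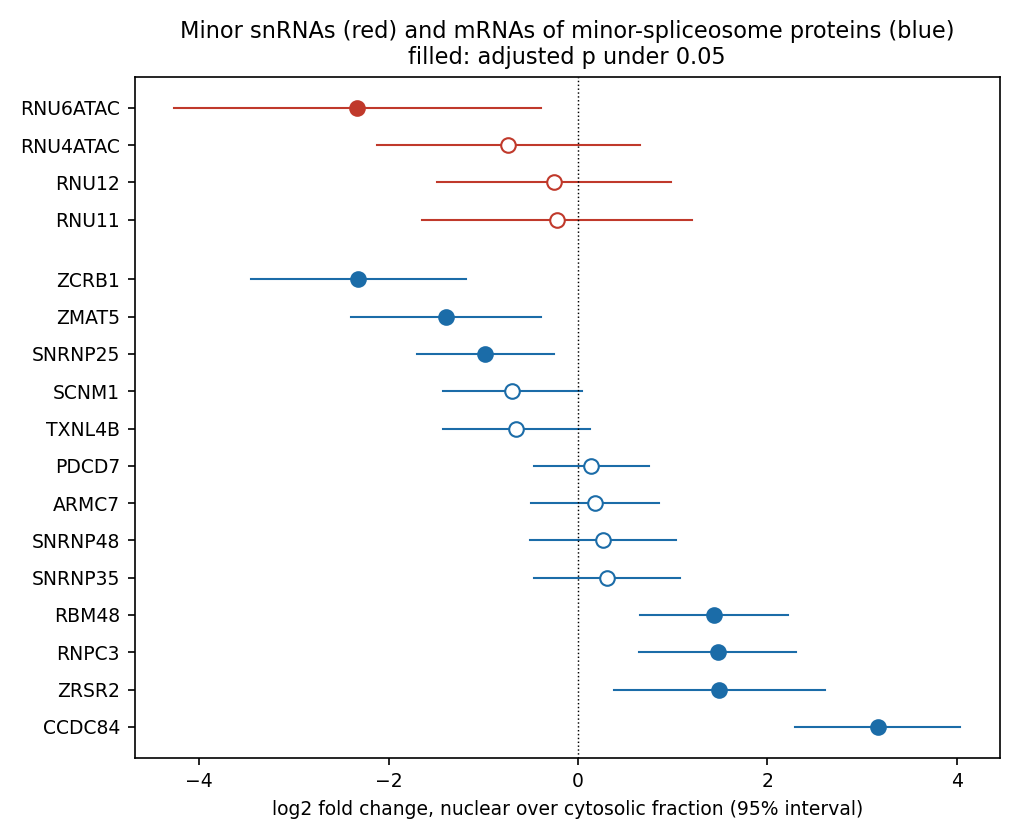
Log2 fold change of the nuclear over the cytosolic fraction with 95% intervals for the 4 minor RNAs (red) and the messenger RNAs of 13 minor spliceosome proteins (blue), filled where the adjusted p was under 0.05. CCDC84 (3.16) and ZCRB1 (-2.32) are at the ends of the protein range, and RNU6ATAC (-2.33) is the only filled RNA.

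In 5 other lists more genes were lower than higher in the nuclear fraction. Among genes of the Sm ring 5 of 7 were lower and 0 higher, with a median of -1.04. SNRPD2 had 39.4 against 172 normalised CPM (log2 difference -2.12, edgeR adjusted p = 8.53e-04). Of the LSm ring that U6 and U6atac carry, 4 of 7 were lower (median -1.75), LSM4 with 30.9 against 131 and LSM2 with 9.65 against 50.2. Proteins of the major particles had 7 of 11 lower (median -1.08), among them SF3A1 of the U2 particle and SNRPC of the U1 particle. Proteins common to both spliceosomes had 14 of 20 lower and 1 higher (median -1.07), with the U12 and U2 component SF3B2 at 118 against 456. Factors of export, cap change and Sm assembly had 9 of 23 lower and 1 higher (median -0.77), STRAP of the SMN complex at 58.2 against 230 among them. All genes tested had a median of 0.13, with 21.2% lower. With short-row factors these 5 lists had 7, 7, 11, 19 and 22 genes lower, where 57.8% of all genes were lower. Without any one of the 4 libraries compared they had 3 to 5, 4, 3 to 6, 7 to 11 and 5 to 6 lower, where 9.72% to 14.5% of all genes were lower, and each median stayed below 0.

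Factors that transcribe small nuclear RNA genes or cut the ends of their transcripts had 3 of 22 genes higher and 4 lower in the nuclear fraction (median -0.02), where 26.1% of all genes were higher and 21.2% lower. INTS6, an Integrator subunit, was at 86.9 ± 15.9 against 14.2 ± 3.49 normalised CPM (log2 difference 2.62, edgeR adjusted p = 5.01e-04). SNAPC4, the largest subunit of the promoter-binding SNAPc complex, was at 77.2 against 24.9 (1.62, adjusted p = 0.00270), while INTS12 was at 3.99 against 14.8 (-1.89, adjusted p = 0.00646). With factors from short rows 1 was higher and 18 were lower, where 57.8% of all genes were lower. Over the other alternatives the list's median ran from -0.089 to 0.247, and that of all genes from 0.021 to 0.498.

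In the native lamina 11 of the 103 genes of the 7 lists were called against the nuclear fraction, 7 higher and 4 lower, or 10.7% where 7.31% of all genes were called. SF3B2 was at 446 ± 44.0 against 118 ± 25.7 normalised CPM (log2 difference 1.91, edgeR adjusted p = 0.00730), and the shared proteins DDX23 (1.41), an RNA helicase, and SF3B1 (1.06), which binds the branch site region, were higher as well. Of the major particles SF3A1 (204 against 72.2 normalised CPM) and SART1 (82.6 against 37.4) were higher, as was KPNB1 (1.22), an import receptor. ZCRB1 was the only minor spliceosome gene called, at 22.3 ± 2.79 against 4.17 ± 0.176 (2.41, adjusted p = 0.0232), and it lost the call without either library of either group. The genes called lower were SNRPE (-1.54) and SNRPG (-1.31) of the Sm ring, INTS6 (26.0 against 86.9, adjusted p = 0.0115) and SNAPC5 (31.3 against 60.2, adjusted p = 0.0477). Without any nuclear, native or cytosolic library edgeR called fewer of the 103 genes and fewer of all genes. Without either PFA library it called more of both. With only the 4 libraries compared it called 29 of the 103 genes, or 28.2% where 27.1% of all genes were called. With short-row factors 69 were higher and 0 lower, where 46% of all genes were higher.

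Against the cytosolic fraction the native lamina had 3 of these genes higher and 19 lower, or 21.4% called where 13.8% of all genes were. CCDC84 (1.91, edgeR adjusted p = 0.0114) and RNPC3 (1.56, adjusted p = 0.0201) were higher and ZMAT5 (-1.90, adjusted p = 0.0211) lower among the minor spliceosome genes. All 3 lost their call without cytosolic replicate 1 or without replicate 2, CCDC84 also without native replicate 1, and RNPC3 and ZMAT5 also without native replicate 2. RNPC3 was not called with short-row factors either. Of the other lists, 6 of 7 Sm genes, 4 of 7 LSm genes and 5 of 20 shared genes were lower, among them SNRPE (-1.76), LSM2 (-2.10) and SF3B5 (-1.85). Among all genes 6.77% were lower and 6.99% higher. Fewer of the 103 genes and fewer of all genes were called without any cytosolic or native library, and more of both without either PFA library. With only the 4 libraries compared 29 of the 103 were called, or 28.2% where 24% of all genes were. With short-row factors 1 was higher and 47 were lower, where 19.9% of all genes were lower.

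Set against the nuclear fraction, the PFA lamina had 23 of the 103 genes higher and 4 lower, or 26.2% called where 17.4% of all genes were. Among all genes 9.63% were higher and 7.81% lower. Within the lists 3 of 7 Sm genes, 3 of 7 LSm genes and 4 of 11 of the major particles were higher. So were 7 of 20 shared genes and 3 of 23 of export and assembly. The Sm list's median was -0.12 all the same. LSM4 was at 111 ± 27.5 against 30.9 ± 10.01 normalised CPM (1.86, edgeR adjusted p = 0.00853), and PRMT5, which methylates Sm proteins, at 231 ± 65.4 against 52.7 ± 2.33 (2.13, adjusted p = 0.00913). SF3A1 was also higher (1.33), as were SF3B5 (1.35) and SNRPB (1.14). Of the minor spliceosome genes ZCRB1 was higher (1.70, adjusted p = 0.0434) and CCDC84 lower (-1.60, adjusted p = 0.0171). Neither was called without nuclear replicate 1, nuclear replicate 2 or PFA replicate 1, or with only the 4 libraries compared. ZCRB1 also lost its call without either cytosolic replicate and with upper-quartile factors, and CCDC84 with short-row factors. With only the 4 libraries compared 2 of the 103 genes were called, or 1.94% where 3.73% of all genes were. Fewer of the 103 and fewer of all genes were called without either nuclear library or PFA replicate 1. Without PFA replicate 2 more of both were called. With short-row factors 83 were higher and 0 lower, where 56.7% of all genes were higher. The nuclear libraries are the same in all comparisons with that fraction, so the values set beside each other here are not independent.

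Between the PFA lamina and the cytosolic fraction edgeR called 0 of the 103 genes, with 25 at an unadjusted p under 0.05 and 12 called by DESeq2. Without PFA replicate 1, edgeR called 27 of them (26.2%, where 16.4% of all genes were called). PFA against native lamina gave 0 calls, 15 at an unadjusted p under 0.05 and 1 by DESeq2, and 5 calls by edgeR without PFA replicate 2, where 4.3% of all genes were called.

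Lamina-associated domains, the stretches of chromosome that lie against the lamina, were listed for HCT116, a colorectal carcinoma line, and not for HEK293FT. None of the 4 minor RNA genes lay in a domain in G1, S or G2, where 7.77%, 6.74% and 9.46% of 27128 genes overlapped one. Those shares were scored over whole gene spans, whereas the 4 rows span 125 to 149 bases. The shares are thus not a like-for-like background, and a count of 0 of 4 says little. RNU4ATAC was nearest to a domain, at 311 kb in G1 and G2 and 211 kb in S. RNU12 was at 5289 kb in G1, 7811 kb in S and 589 kb in G2, and RNU11 between 5125 and 5325 kb. RNU6ATAC was farthest, at 13930 to 14030 kb. The lists hold no scores or replicates, so these distances have no error.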

How the data were processed

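RNA-seq reads were counted per gene symbol by the authors, and the deposited values are raw counts; per the file headers, featureCounts 1.5.2 was run on the hg19 RefFlat annotation, ignoring strand and counting a read for every gene it overlapped. The submitters' processing notes list TopHat2 2.1.1, Bowtie2 2.3.2 and edgeR 3.24.3 without their role. Cytosolic replicate 1 has a header whose output name is that of nuclear replicate 1. Its label was kept, since its correlation across genes was 0.970 with the other cytosolic library and 0.795 with nuclear replicate 1. The deposited domain lists hold intervals without values.

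Filtering by group (filterByExpr) left 16504 genes. One fit of all 8 libraries was tested with edgeR 4.0.16 (R 4.3.3): TMM factors, quasi-likelihood test, 6 contrasts, Benjamini-Hochberg adjustment, call at adjusted p under 0.05. All 4 members passed the filter. Scripts were tested on simulated data. Alternatives used other factors, filters, DESeq2 1.42.0, a replicate block and libraries left out.

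The members and lists were chosen with earlier results of these data known. Named were all members, the 3 rows most like RNU11, and up to 4 called genes per list by smallest p. 4 K562 samples with contradictory labels were not used. One further K562 marker is not reported here.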

Additional observations from a re-analysis of the deposited data

How the results depend on the processing

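Of 393 alternative log2 values of the 4 rows, 335 kept direction and call, 14 became calls, 12 lost the call and 32 changed sign. Rows called in nuclear against cytosolic fraction were 1, but 0 with upper-quartile factors, 0 with at least 10 counts in every library (which drops RNU4ATAC and RNU6ATAC), 4 with factors from rows under 300 bases (which called 65.3% of all genes), and 0 to 1 when leaving out a library. In native lamina against cytosolic fraction they were 1, but 0 with total counts, upper-quartile factors or the stricter filter, 2 with short-row factors (23.6% of all genes), no filter (14.4%) or only the 4 libraries compared (24%), and 0 to 2 when leaving out a library. In PFA lamina against nuclear fraction they were 0, but 2 with short-row factors (58% of all genes), 1 without a filter and 0 to 1 when leaving out a library; against the cytosolic fraction 0 to 2 when leaving out a library. The other 2 comparisons stayed at 0. Without a filter, 17% of all genes were called in PFA lamina against nuclear fraction. The minor share was 100% of the matched rows by construction and, in an alternative chosen after seeing the data, 85.9%, 89.3%, 91.8% and 91.1% of all 11 snRNA rows in the nuclear, cytosolic, native and PFA groups. Signs changed with upper-quartile factors (RNU11 0.051 and RNU12 0.016, nuclear against cytosolic; RNU11 -0.12, native against nuclear), total counts (RNU11 0.10, native against cytosolic; RNU12 0.036, PFA against nuclear) and short-row factors (RNU12 0.53, native against nuclear; RNU11 1.11, RNU12 1.23 and RNU4ATAC 0.047, PFA against nuclear; RNU11 0.16, PFA against native). RNU11 in native against nuclear also changed sign with the stricter filter (-0.075) and DESeq2 (-0.0056). The cause was not tested.

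Without 1 library RNU4ATAC ranged from -1.81 to -0.15 in nuclear against cytosolic and from -2.37 to -0.50 in native against nuclear, and RNU6ATAC from -3.72 to -1.09 in native against cytosolic. Leaving out a library moved the sign of RNU11 in native against nuclear between -1.67 and 0.80, of RNU12 between -1.88 and 0.31, and of RNU6ATAC between -1.38 and 1.26. Against the cytosolic fraction RNU11 ranged from -1.91 to 0.56 and RNU12 from -2.15 to 0.039. In PFA against nuclear the ranges were -1.90 to 0.56 (RNU11), -1.19 to 0.55 (RNU12) and -0.81 to 2.78 (RNU6ATAC), and against cytosolic -2.19 to 0.32, -1.51 to 0.28 and -3.21 to 0.43. In PFA against native they were -1.97 to 1.51, -0.82 to 1.85, -1.36 to 3.35 and, for RNU4ATAC, -0.13 to 1.23. Same-numbered libraries did not deviate together throughout (correlations from -0.055 to 0.333 over 6 pairs of groups; 4 of 8 libraries correlated best with their own number). The replicate block changed no call of the 4 rows, gave RNU11 -0.36 in native against nuclear, and moved the calls over all genes in nuclear against cytosolic from 7811 to 8333. Native lamina calls went from 1207 to 1846 against the nuclear and from 2271 to 3010 against the cytosolic fraction. PFA lamina calls went from 2878 to 3556 and from 111 to 404 in the same order, and PFA against native stayed at 0. RNU4ATAC and RNU6ATAC had 3 to 6 counts in the second lamina libraries, which limits their precision there. Summing near-identical copies was not run.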
